A study of Homo sapiens with 12 samples.

Results

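The mRNAs of the NF-kB and IkB family were followed in a human liver tumour line exposed to acriflavine. The family is represented by 10 genes: the subunits NFKB1, NFKB2, RELA, RELB and REL, the inhibitors NFKBIA, NFKBIB, NFKBIE and NFKBIZ, and the feedback enzyme TNFAIP3. They were chosen by symbol, through the Ensembl identifiers of the counts table, as 10 of its 63152 genes, and all 10 were among the 16839 genes with enough counts to be tested. Each of 3 groups had 4 libraries: a control without acriflavine, 2.5 µM acriflavine and 5 µM acriflavine, all collected after 24 h in fresh medium. The control is called untreated in some labels, and the protocol speaks of DMSO as vehicle. The cells are labelled HepG2, a hepatoblastoma line, and the sample descriptions name HepG2S1, a line raised from it by months of exposure to rising sorafenib. All 3 groups therefore share the sorafenib-selected background, and they share a medium with serum, insulin and the glucocorticoid dexamethasone. Acriflavine, an antiseptic made of acridine dyes, binds between DNA bases and is known as an inhibitor of HIF-1 dimer formation, and the study's title concerns the epithelial-to-mesenchymal transition.

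NF-kB is a set of dimers built from RELA, RELB and REL, which carry activation domains, and from p50 and p52, which are cut from the NFKB1 and NFKB2 proteins. IkB proteins hold the dimers in the cytoplasm until the IKK kinases mark them for degradation, and the released dimers bind kB sites in DNA. NFKBIA, NFKBIE, NFKB1, NFKB2, RELB, REL and TNFAIP3 are themselves known NF-kB target genes, and in liver cells the pathway is known for cell survival and the acute-phase response. Glucocorticoids are known to dampen it.

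The promoters of the family are shown first, because the members differ in the kB sites that lie just before their start sites. Start sites and sequences are those of RefSeq on GRCh38.p14, in windows of 250 bases before to 50 bases after each start, and 8 of the 10 members were matched by symbol. RELB and NFKBIE had no entry. The kB consensus, searched on both strands, was found in 7 of the 8 members, against 7.09% of the 27305 genes of the table. Counted by window, it was found in 9 of the members' 14, against 5.91% of all 35116. Forms of the consensus that occurred in at least 2 members were then counted on their own. GGGAATTTCC lay in the windows of 5 members (NFKB1, REL, NFKBIA, NFKBIB and NFKBIZ), against 0.179% of all genes. GGGACTTTCC lay in those of TNFAIP3 and NFKB2, against 0.227%, and GGGAAATTCC in those of REL and NFKBIB, against 0.201%. The forms were picked for occurring in at least 2 members, so these member counts are a description and cannot serve as a test. All 3 forms are also counted under the consensus, and matches on opposite strands can overlap. In REL and NFKBIB, GGGAATTTCC and GGGAAATTCC overlap in this way. Stretches of 120 bases ending at the base before the start are printed 5′ to 3′ on the gene's strand, with capitals at the bases covered by a match on either strand. For NFKBIZ the stretch runs from 250 to 131 bases before its first listed start. NFKB2 and NFKBIB are shown at the second of their listed starts, and the first of each had no match. The stretches are chr4:102501239-102501358 (plus strand) for NFKB1, chr10:102394458-102394577 (plus) for NFKB2, chr2:60881454-60881573 (plus) for REL, chr14:35404750-35404869 (minus) for NFKBIA and chr6:137867139-137867258 (plus) for TNFAIP3. Those of NFKBIB, NFKBIZ and RELA are chr19:38899849-38899968 (plus), chr3:101827740-101827859 (plus) and chr11:65663858-65663977 (minus).
NFKB1: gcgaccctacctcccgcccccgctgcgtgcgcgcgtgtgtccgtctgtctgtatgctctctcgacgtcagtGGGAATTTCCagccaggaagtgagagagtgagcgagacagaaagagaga
NFKB2: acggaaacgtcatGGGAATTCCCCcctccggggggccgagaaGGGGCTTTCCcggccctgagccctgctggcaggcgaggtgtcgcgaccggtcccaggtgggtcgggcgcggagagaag
REL: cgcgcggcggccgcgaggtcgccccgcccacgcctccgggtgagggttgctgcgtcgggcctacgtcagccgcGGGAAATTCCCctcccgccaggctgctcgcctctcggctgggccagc
NFKBIA: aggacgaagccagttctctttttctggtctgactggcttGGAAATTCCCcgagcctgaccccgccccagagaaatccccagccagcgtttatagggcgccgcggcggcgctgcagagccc
TNFAIP3: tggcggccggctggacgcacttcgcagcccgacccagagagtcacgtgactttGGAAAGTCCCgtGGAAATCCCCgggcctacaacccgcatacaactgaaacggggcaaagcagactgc
NFKBIB: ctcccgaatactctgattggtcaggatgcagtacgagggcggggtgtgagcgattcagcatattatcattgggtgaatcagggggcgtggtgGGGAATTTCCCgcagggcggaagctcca
NFKBIZ: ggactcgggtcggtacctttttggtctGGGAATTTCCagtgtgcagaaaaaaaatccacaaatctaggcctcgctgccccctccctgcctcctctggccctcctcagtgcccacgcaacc
RELA: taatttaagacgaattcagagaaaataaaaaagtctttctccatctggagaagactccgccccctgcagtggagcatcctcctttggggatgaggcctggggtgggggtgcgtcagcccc
In NFKB1 the match began 49 bases before the start, and in REL overlapping matches on the 2 strands began 47 and 46 bases before it. NFKBIA held GGGAATTTCC on the other strand, 81 bases before the start. TNFAIP3 held a pair on the other strand, GGGACTTTCC at 67 and GGGGATTTCC at 55 bases before the start. RELA had no match in either of its 2 windows, and the second listed start of NFKB1 had none. A match is a description of letters and does not show that a factor was bound.

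**Figure D1:**
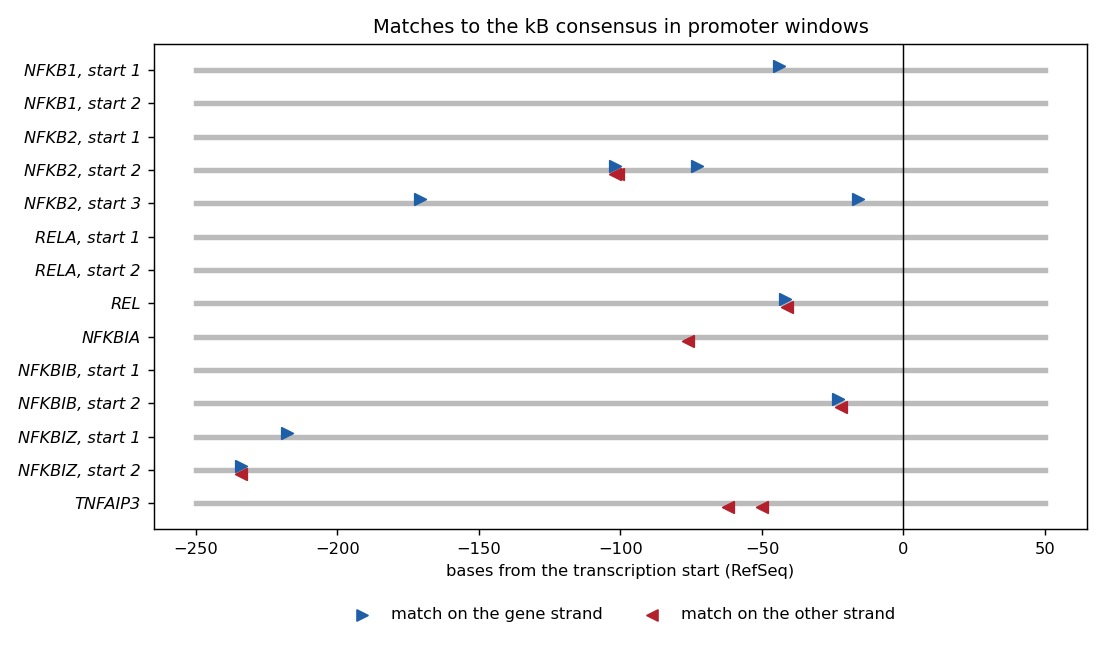
Matches to the kB consensus in the RefSeq promoter windows of the 8 members with an entry, plotted by their distance in bases from the transcription start (vertical line). Triangles mark the strand of the match. NFKB1, NFKB2, REL, NFKBIA, NFKBIB and TNFAIP3 have a match within 100 bases before a start, and NFKBIZ has matches only farther out. The rows of RELA, NFKB1 start 2, NFKB2 start 1 and NFKBIB start 1 are empty.

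Libraries held 10733567 to 15116842 counts, and the biological coefficient of variation was 5.43%. Among 20 hepatocyte markers only CPS1, a urea cycle enzyme of liver mitochondria, reached 1 CPM (read counts scaled to library size) in the controls. ALB and AFP, which define hepatic and hepatoblastoma cells, had 0 counts in all control libraries, so the labelled liver identity was not visible in its defining markers. At 5 µM 6 of the 20 hepatocyte markers reached 1 CPM, and their summed level was 938 to 973 CPM, beside 2140 to 2250 CPM in controls. CPS1 carried that fall (log2 fold change -1.21 ± 0.04, adjusted p = 1.32e-23), while the transferrin gene TF went from 0 to 284 counts and APOB from 10 to 76, and ALB had 2 counts. Of 10 blood cell markers, 0 reached 1 CPM in the controls and 2 (PTPRC and CD14) at 5 µM, and their summed level was 0.716 to 1.44 CPM in controls and 3.69 to 5.57 CPM at 5 µM, with CD3E and TYROBP at 0 counts in all 12 libraries. Of 7 endothelial markers, 0 and 2 reached 1 CPM, with sums of 0.169 to 0.537 and 7.47 to 8.91 CPM. Of 7 fibroblast markers, 4 reached 1 CPM in the controls, with sums of 619 to 769 CPM in controls and 557 to 599 CPM at 5 µM. These sums were mostly DCN (means of 563 and 450 CPM) and LUM (119 and 82.1 CPM), both lower at 5 µM. COL1A1 (log2 fold change 0.45) and PDGFRB (1.86) were higher, and COL1A2, PDGFRA and THY1 had 0, 1 and 0 counts in controls. The part of these shifts in the results below was not tested. In bulk RNA, fewer cells of a type and less RNA per cell cannot be told apart.

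At 5 µM, 6 family members were lower than in controls, 3 were higher and 1 (NFKBIE) did not pass the test (edgeR's quasi-likelihood test, Benjamini-Hochberg adjusted p under 0.05 over all genes tested). The count of 9 of 10 stands beside 78.2% of all tested genes that passed, so the share of members that changed was near that of genes at large. Of all tested genes 39.4% were lower and 38.7% higher. NFKB1, TNFAIP3 and RELB were at least 2-fold lower, 3 of 10 against 10.8% of all genes. The median log2 fold change of the 10 members was -0.71, beside -0.01 for all genes. At 2.5 µM, 4 members were lower and 2 higher than in controls, beside 59.1% of all genes called (28.5% lower and 30.7% higher), with a median of -0.11. Only NFKB1 was at least 2-fold lower there, beside 3.74% of all genes, and 0 members were 2-fold higher, beside 6.35%. Between the doses, 6 members were lower and 1 was higher at 5 µM than at 2.5 µM, beside 68.4% of all genes called (34.8% lower and 33.6% higher). The values of the 4 and 4 libraries did not overlap for 7 members at 5 µM against control, where 70.8% of all genes had no overlap. At 2.5 µM this held for 4 members, beside 50.5% of all genes, and between the doses for 6, beside 62.1%.

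**Figure D2:**
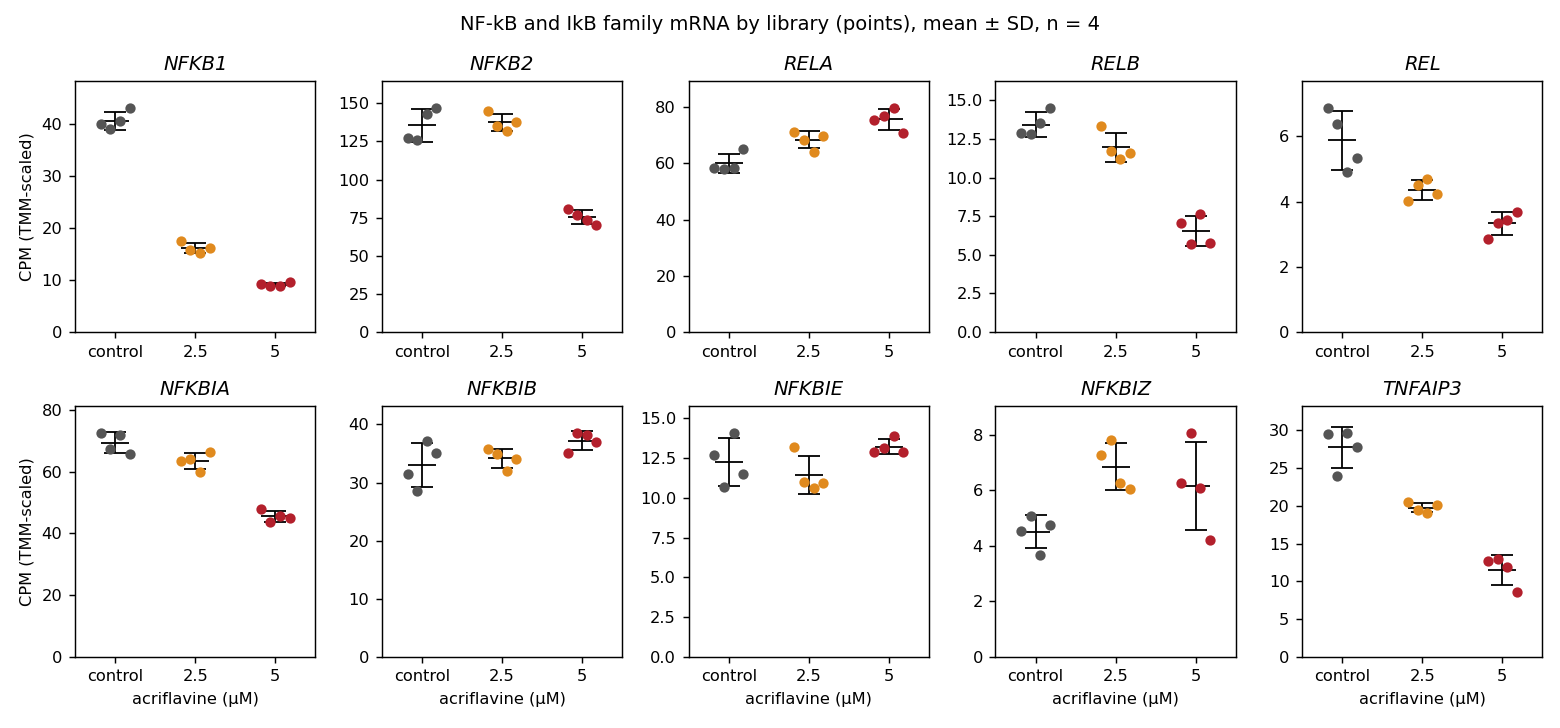
Level of each of the 10 mRNAs in CPM scaled by TMM (linear axis from 0) against acriflavine dose, with 1 point per library and the mean ± SD (n = 4) as bars. The control libraries of NFKB1 hold 38.9 to 43.0 CPM and its 5 µM libraries 8.79 to 9.56 CPM, without overlap, while RELA lies higher at 5 µM than in any control.

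NFKB1, the precursor of p50, fell furthest of the family. Its 4 control libraries held 39.9, 38.9, 40.4 and 43.0 CPM, those at 2.5 µM 17.4, 15.8, 15.1 and 16.1 CPM, and those at 5 µM 9.18, 8.93, 8.79 and 9.56 CPM. The 3 groups were far apart, and the spread within each was small beside the gaps. NFKB1 was 2.52-fold lower at 2.5 µM (log2 fold change -1.33 ± 0.07 SE, adjusted p = 8.83e-17) and 4.43-fold lower at 5 µM (-2.15 ± 0.08, adjusted p = 3.92e-22). Of the 16839 genes tested, 173 (1.03%) had a fold change as low or lower at 5 µM, and 322 (1.91%) at 2.5 µM. The decrease from 2.5 to 5 µM was also called (-0.82 ± 0.09, adjusted p = 7.31e-10).

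RELA, the main activating partner of p50, moved the other way by a small amount. It stood at 58.2, 58.1, 58.4 and 65.1 CPM in controls, 71.3, 68.3, 64.2 and 69.6 CPM at 2.5 µM and 75.3, 76.9, 79.7 and 70.8 CPM at 5 µM. The highest control lay above the lowest 2.5 µM library, and all 5 µM libraries lay above all controls. RELA was 1.26-fold higher at 5 µM (log2 fold change 0.34 ± 0.06, adjusted p = 2.84e-06) and higher by 0.19 ± 0.06 at 2.5 µM (adjusted p = 0.00489). Its difference between the doses, 0.15 ± 0.06 with adjusted p = 0.0217, lost the call in 4 of 21 alternative analyses (adjusted p 0.000354 to 0.102 over all 21). These were no filter on low counts (0.0637) and leaving out replicate 2 (0.0529) or 3 (0.102) at 2.5 µM or replicate 3 at 5 µM (0.0675).

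REL, which encodes c-Rel and is best known from lymphocytes, had the family's lowest counted level per kilobase of transcript. It held 6.87, 6.38, 4.92 and 5.33 CPM in controls, 4.01, 4.5, 4.7 and 4.23 CPM at 2.5 µM and 2.85, 3.35, 3.44 and 3.69 CPM at 5 µM, from summed counts of 293, 241 and 177. The groups did not overlap. REL was lower at 2.5 µM (log2 fold change -0.44 ± 0.14, adjusted p = 0.00641) and at 5 µM (-0.81 ± 0.14, adjusted p = 6.23e-06). The difference between doses (-0.37 ± 0.15, adjusted p = 0.0279) lost the call in 6 of 21 alternatives, with adjusted p from 0.0231 to 0.0987. In GENCODE 29, REL shares 5702 exon bases with AC010733.2 on the same strand, whose summed counts were 239, 187 and 163, so the split of reads between them is uncertain. The level of REL per kilobase, and its place below NFKBIZ, carry the same uncertainty.

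NFKB2 and RELB, the p52 precursor and its usual partner in the non-canonical arm, changed at 5 µM and not detectably at 2.5 µM. NFKB2 stood at 127, 126, 143 and 147 CPM in controls, 145, 135, 132 and 138 CPM at 2.5 µM and 80.7, 76.9, 73.3 and 70.2 CPM at 5 µM. RELB stood at 12.9, 12.8, 13.5 and 14.5 CPM, then 13.3, 11.7, 11.2 and 11.6 CPM, then 7.04, 5.67, 7.62 and 5.75 CPM. For both genes the 2.5 µM values overlapped those of controls and the 5 µM values lay below both. NFKB2 was 1.8-fold lower at 5 µM (log2 fold change -0.85 ± 0.06, adjusted p = 2.14e-15), while at 2.5 µM the difference was 0.02 (95% interval -0.08 to 0.13, adjusted p = 0.741). RELB was 2.06-fold lower at 5 µM (-1.04 ± 0.11, adjusted p = 2.49e-10), with -0.17 at 2.5 µM (interval -0.36 to 0.03, adjusted p = 0.151). Between the doses both fell by 0.87 on the log2 scale, and 4.99% and 4.95% of all tested genes were as low or lower than NFKB2 and RELB in that comparison.

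Whether the second dose step differed from the first was tested as a contrast of its own, the log2 change from 2.5 to 5 µM minus that from 0 to 2.5 µM. It was called for 5 members, 1 higher and 4 lower, beside 48.6% of all tested genes (21.8% higher and 26.8% lower). NFKB1 gave 0.52 ± 0.14 (adjusted p = 0.00275), a larger fall over the first step than over the second. NFKB2 (-0.90 ± 0.09, adjusted p = 1.42e-09), RELB (-0.71 ± 0.18, adjusted p = 0.00145) and NFKBIA (-0.35 ± 0.10, adjusted p = 0.00318) fell more over the second. For TNFAIP3 (-0.31 ± 0.17, adjusted p = 0.117), REL (0.06 ± 0.25, adjusted p = 0.851) and RELA (-0.04 ± 0.10, adjusted p = 0.733) no difference between the steps was detected.

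**Figure D3:**
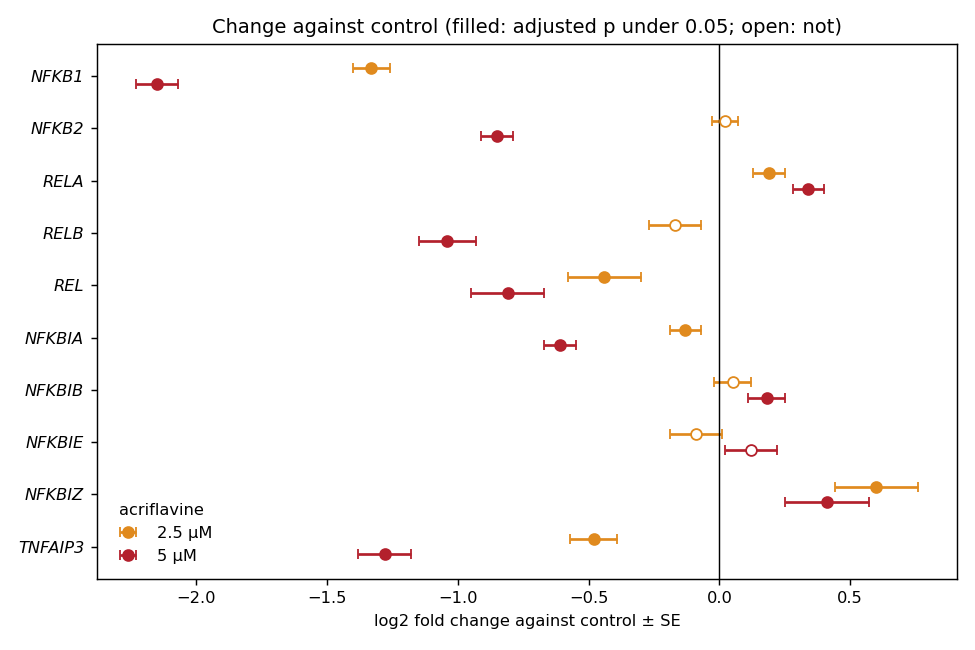
Log2 fold change against control ± SE for each member at 2.5 and 5 µM, with filled symbols for adjusted p under 0.05. NFKB1 is near -1.33 and -2.15, while NFKB2 and RELB sit near 0 (0.02 and -0.17) at 2.5 µM and at -0.85 and -1.04 at 5 µM.

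Of the inhibitors, NFKBIA was lower at 5 µM and the others were not. NFKBIA encodes IkB-alpha, which is rapidly degraded and remade after a stimulus. It held 72.7, 67.3, 71.9 and 65.7 CPM in controls, 63.4, 64.1, 60.0 and 66.3 CPM at 2.5 µM and 47.8, 43.6, 45.7 and 45.1 CPM at 5 µM. The 5 µM libraries lay below all others. NFKBIA was 1.52-fold lower at 5 µM (log2 fold change -0.61 ± 0.06, adjusted p = 1.76e-11). At 2.5 µM the groups overlapped and the difference was -0.13 ± 0.06 with adjusted p = 0.0471, a call lost in 9 of 21 alternatives (adjusted p 0.0232 to 0.187). Among these were leaving out control replicate 1 (0.138) or 3 (0.0539), or replicate 1 (0.0853), 2 (0.0703) or 3 (0.147) at 2.5 µM.

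NFKBIB and NFKBIE, the slower-acting IkB-beta and IkB-epsilon, differed from their control levels by small amounts. NFKBIB held 31.4, 28.6, 37.2 and 35.0 CPM in controls and 35.0, 38.6, 38.2 and 36.9 CPM at 5 µM, with 32.0 to 35.7 CPM at 2.5 µM. The groups overlapped. Its log2 fold change at 5 µM was 0.18 ± 0.07 (adjusted p = 0.0305), and the call was lost without control replicate 1 (0.14, adjusted p = 0.101) or 2 (0.10, adjusted p = 0.219) and without replicate 2 (0.15, adjusted p = 0.0835) or 3 (0.16, adjusted p = 0.0716) at 5 µM. The range over all 21 alternatives was 0.000273 to 0.219. NFKBIE held 10.7 to 14.1 CPM in controls, 10.6 to 13.2 CPM at 2.5 µM and 12.9 to 13.9 CPM at 5 µM. At 5 µM it differed by 0.12 (interval -0.08 to 0.31, adjusted p = 0.285), and it passed with scaling to library size only (0.25, adjusted p = 0.0214; 0.0214 to 0.704 over all alternatives). In GENCODE 29, 40 exon bases of NFKBIB overlap SIRT2 on the opposite strand, and the strand setting of the counting is not given in the sources used here.

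NFKBIZ encodes IkB-zeta, a nuclear protein that acts as a co-activator at some NF-kB targets. It held 4.53, 5.06, 3.67 and 4.74 CPM in controls, 7.27, 7.81, 6.24 and 6.05 CPM at 2.5 µM and 6.24, 8.07, 6.08 and 4.19 CPM at 5 µM. All 2.5 µM libraries were above all controls, and the 5 µM libraries were spread across both. The log2 fold change was 0.60 ± 0.16 at 2.5 µM (adjusted p = 0.00154) and 0.41 ± 0.16 at 5 µM (adjusted p = 0.0206). The call at 5 µM was lost with limma-voom (adjusted p = 0.0508), without control replicate 3 (0.0969) and without 5 µM replicate 2 (0.151), and its range was 0.00101 to 0.151. NFKBIZ had a step contrast of -0.78 ± 0.26 (adjusted p = 0.0135), which was lost without 2.5 µM replicate 2 (-0.64, adjusted p = 0.0713).

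Both other nuclear IkB proteins listed beside the members were higher at 5 µM, beside 38.7% of all tested genes. NFKBID (IkB-NS) held 3.81 to 4.37 CPM in controls, 4.47 to 5.65 CPM at 2.5 µM and 6.01 to 9.09 CPM at 5 µM (log2 fold change 0.84 ± 0.14 at 5 µM, adjusted p = 2.16e-06). BCL3, which binds p50 and p52 dimers, held 12.7 to 16.3 CPM in controls, 18.6 to 22.1 CPM at 2.5 µM and 17.6 to 20.9 CPM at 5 µM. BCL3 was higher by 0.52 ± 0.09 at 2.5 µM (adjusted p = 1.05e-05) and by 0.45 ± 0.09 at 5 µM (adjusted p = 5.26e-05). Its difference between the doses was -0.07 (adjusted p = 0.486). Neither gene's 5 µM libraries overlapped its controls, which held for 70.8% of all tested genes.

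TNFAIP3 encodes A20, a ubiquitin-editing enzyme that shuts the pathway off upstream of IKK. It held 29.5, 23.9, 29.7 and 27.8 CPM in controls, 20.5, 19.5, 19.0 and 20.1 CPM at 2.5 µM and 12.7, 12.9, 11.9 and 8.62 CPM at 5 µM. The 3 groups did not overlap. TNFAIP3 was 2.43-fold lower at 5 µM (log2 fold change -1.28 ± 0.10, adjusted p = 1.24e-13) and lower at 2.5 µM (-0.48 ± 0.09, adjusted p = 2.95e-05), and 998 genes (5.93%) were as low or lower at 5 µM. In GENCODE 29, 95 of its exon bases overlap the antisense AL357060.1, whose summed counts were 62, 137 and 280 over the 3 groups.

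CYLD, the other well-known deubiquitinase of the pathway, moved in the opposite direction to TNFAIP3. It held 69.8, 78.1, 67.2 and 74.3 CPM in controls, 140, 133, 144 and 126 CPM at 2.5 µM and 257, 255, 273 and 272 CPM at 5 µM. The groups did not overlap, and each dose step was close to a doubling. CYLD was 3.65-fold higher at 5 µM (log2 fold change 1.87 ± 0.05, adjusted p = 2.35e-25) and higher by 0.91 ± 0.05 at 2.5 µM (adjusted p = 5.6e-16), with a step contrast of 0.05 (adjusted p = 0.647).

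Ratios of counts within a library do not depend on library scaling. RELA to NFKB1 was 1.46, 1.49, 1.45 and 1.51 in controls, 4.1, 4.33, 4.25 and 4.33 at 2.5 µM and 8.2, 8.61, 9.07 and 7.41 at 5 µM. The ratio was higher at each dose with no overlap between groups. NFKB2 to NFKB1 went from 3.18 to 3.55 in controls to 8.35 to 8.76 at 2.5 µM, and at 5 µM it was 7.35 to 8.8, overlapping the lower dose. RELA to NFKBIA lay between 0.8 and 0.991 in controls, between 1.05 and 1.13 at 2.5 µM and between 1.57 and 1.76 at 5 µM. CYLD to TNFAIP3 went from 2.26 to 3.27 to between 19.8 and 31.6 at 5 µM. These ratios are descriptions of the counts and are not corrected for gene length.

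**Figure D4:**
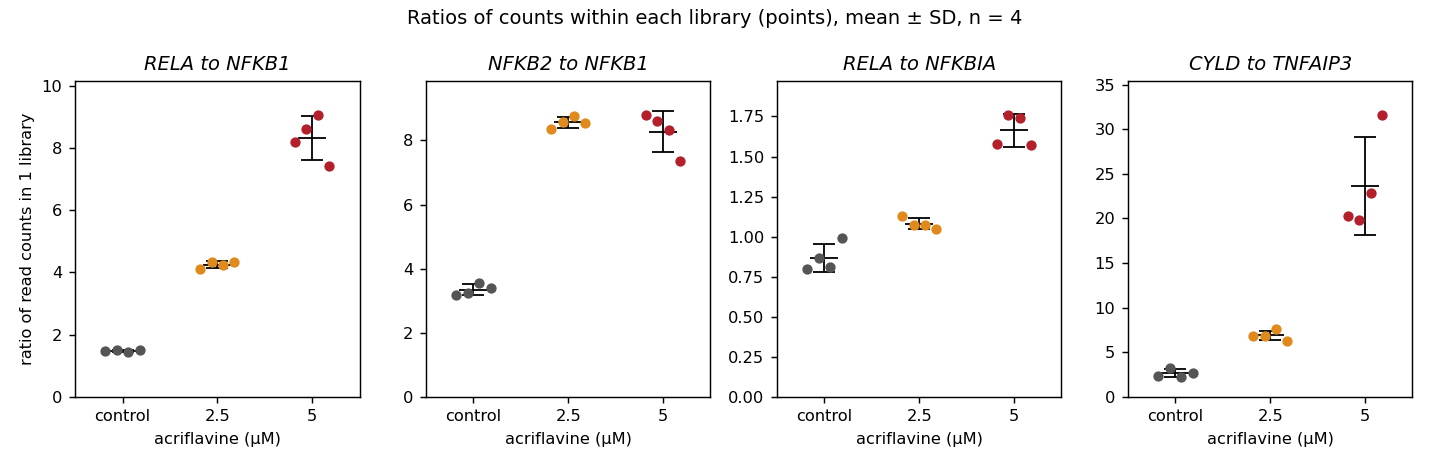
Ratios of read counts of gene pairs within each library (linear axes from 0) against dose, with points for libraries and the mean ± SD (n = 4). RELA to NFKB1 separates the groups at means of 1.48, 4.25 and 8.32.

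Levels were compared between members per kilobase of the longest coding transcript in GENCODE 29. In controls NFKBIA (44.5 ± 2.21 CPM per kb, SD, n = 4) and NFKB2 (39.7 ± 3.17) led, with overlapping libraries. RELA (18.8 ± 1.07) and NFKBIB (17.1 ± 1.99) followed and also overlapped, then NFKB1 (9.93 ± 0.424). TNFAIP3 (5.85 ± 0.567) overlapped both RELB (5.84 ± 0.341) and NFKBIE (4.74 ± 0.564), while all RELB libraries lay above all NFKBIE libraries, and NFKBIZ (1.15 ± 0.151) and REL (0.522 ± 0.0804) were lowest. The place of REL below NFKBIZ is uncertain, because of the exon bases it shares with AC010733.2. At 5 µM NFKB1 stood at 2.23 ± 0.0826 CPM per kb, overlapping TNFAIP3 (2.43 ± 0.417) and below all libraries of RELB (2.84 ± 0.421). With the union of all exons as length, 3 pairs changed places in controls. NFKB2 came before NFKBIA (30.2 against 29.2 CPM per kb) and NFKBIE before RELB (4.74 against 4.42), each with overlapping libraries. NFKBIB (14.2) came before RELA (11) without overlap, so these orders depend on the length used.

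Among the 5 subunits, summed per kilobase of the longest coding transcript, NFKB1 made up 13.3% in controls, 5.52% at 2.5 µM and 4.37% at 5 µM. RELA made up 25.2%, 30.1% and 46.5%, and NFKB2 53.0%, 56.5% and 43.1%. With exon unions the NFKB1 share was 12.3%, 5.14% and 4.23%, and that of RELA 20.9%, 25.0% and 40.2%. At 5 µM RELA exceeded NFKB2 by the first length and not by the second, under which NFKB2 kept 48.7%. The share of mRNA says nothing of the amount of protein.

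The counts of the lists that follow stand beside 78.2% of all tested genes called at 5 µM, 38.7% higher and 39.4% lower, and a median of -0.01. The filter on low counts can be passed through 1 group alone. A gene near 0 in the other groups is then tested only because that group is high. The genes around the family were taken from lists of ligands, receptors and adaptors, kinases, negative regulators, the ubiquitin ligase that removes IkB, and target genes. Of 13 ligands, 4 had enough counts to be tested, and at 5 µM 3 were lower and 1 higher, with a median log2 fold change of -1.41. IL1B, the interleukin-1 beta precursor, held 2.54 to 6.27 CPM in controls and 0.5 to 0.659 CPM at 5 µM, 8.14-fold lower (log2 fold change -3.02 ± 0.27, adjusted p = 6.32e-12). IL1A (log2 fold change -2.05 ± 0.19, adjusted p = 1.29e-11) and IL18 (-0.77 ± 0.05, adjusted p = 1.37e-15) were lower, and TNFSF15 was higher by 1.17 ± 0.29 (adjusted p = 0.000529). TNFSF15 had only 36, 31 and 86 counts over the groups and passed the filter through its 5 µM libraries. TNF itself had 0, 0 and 1 counts summed over the 3 groups.

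Of 37 receptors and adaptors, 29 were tested, and at 5 µM 17 were lower, 8 higher and 4 did not pass (86.2% called), with a median of -0.29. TRAF2, the adaptor that links TNF receptors to IKK, held 47.4 to 49.9 CPM in controls, 31.0 to 35.1 CPM at 2.5 µM and 10.1 to 11.9 CPM at 5 µM. It was 4.42-fold lower (log2 fold change -2.15 ± 0.08, adjusted p = 1.25e-22), and the log2 value for NFKB1 was the same. IRAK1 (-0.99 ± 0.05, adjusted p = 1.83e-17) and LTBR, the lymphotoxin beta receptor (-0.82 ± 0.05, adjusted p = 4.53e-17), were also lower. RIPK1, the kinase at the TNF receptor, was higher (29.3 to 36.8 CPM in controls, 85.4 to 96.4 CPM at 5 µM, 1.42 ± 0.07, adjusted p = 1.05e-19). The lipopolysaccharide receptor TLR4 (2.14 ± 0.12, adjusted p = 3.14e-17) and its adaptor MYD88 (1.88 ± 0.14, adjusted p = 1.02e-13) were higher too.

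Of 17 IKK subunits and upstream kinases and enzymes, 15 were tested, with 6 higher, 7 lower and 2 not passing at 5 µM (86.7% called) and a median of 0.11. The core kinases changed by small amounts. IKBKB (IKK-beta) held 31.8 to 33.5 CPM in controls and 23.8 to 27.8 CPM at 5 µM (-0.36 ± 0.07, adjusted p = 2.34e-05), and CHUK (IKK-alpha) 34.1 to 44.0 and 46.5 to 51.4 CPM (0.28 ± 0.07, adjusted p = 0.000319). MAP3K14 (NIK), which drives the processing of NFKB2, differed by 0.11 ± 0.06 at 5 µM (adjusted p = 0.113) and was higher by 0.28 at 2.5 µM (adjusted p = 0.000223). RBCK1, a subunit of the linear ubiquitin ligase, was 3-fold lower (-1.58 ± 0.05, adjusted p = 2e-23), with SHARPIN, another subunit, at -0.48 ± 0.07 (adjusted p = 1.84e-07). TBK1 was lower (-1.42 ± 0.11, adjusted p = 9.48e-13). TAB2 (0.76 ± 0.05, adjusted p = 7.18e-15), MAP3K3 (0.83 ± 0.07, adjusted p = 1.43e-12) and UBE2N (0.60 ± 0.05, adjusted p = 2.43e-12) were higher. The rows matched to IKBKG, IKBKE and OTUD7B held 0 counts in every library, which is not read as a level of these genes.

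Of 21 negative regulators, 19 were tested, and 7 were higher, 8 lower and 4 not called at 5 µM (78.9% called), with a median of -0.11. Beside CYLD, ZC3H12A, an RNase that degrades cytokine mRNAs, was lower (16.3 to 20.6 CPM in controls, 5.5 to 8.02 CPM at 5 µM, -1.49 ± 0.12, adjusted p = 3.05e-13). TNIP1, a binding partner of A20, was lower (-0.36 ± 0.05, adjusted p = 8.08e-08). IRAK3, an inhibitory kinase of the interleukin-1 pathway, had 2, 21 and 102 counts over the groups, a 5 µM to control ratio of 52.7 with a 95% counting interval of 14.2 to 441. Of 8 genes of the ubiquitin ligase that marks IkB, 4 were higher, 1 lower and 3 not called (62.5% called), with BTRC, its substrate receptor, at 0.28 ± 0.06 (adjusted p = 3.54e-05) and UBE2D2 at -0.59 ± 0.05 (adjusted p = 1.52e-12).

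**Figure D5:**
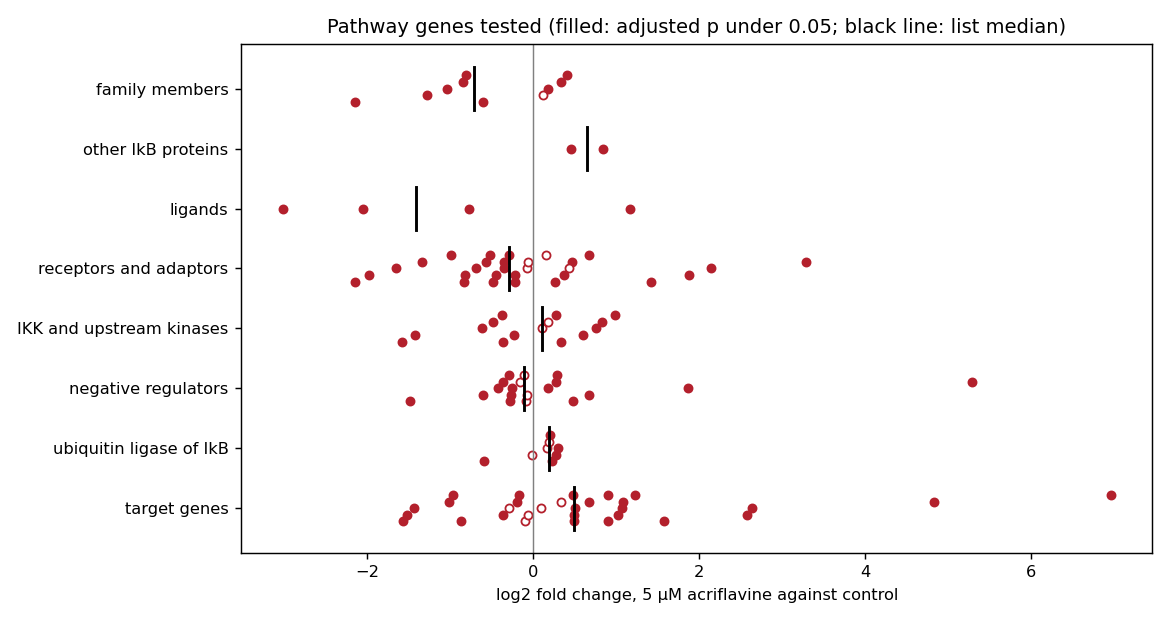
Log2 fold change at 5 µM against control for every tested gene of each list (points, filled for adjusted p under 0.05) with the list median as a black line. The ligand median is -1.41 and the target gene median 0.49, and genes of both directions appear in every list of receptors, kinases, negative regulators and targets.

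Known NF-kB target genes outside the family were called in both directions. Of 43 listed, 30 were tested, and at 5 µM 16 were higher, 9 lower and 5 did not pass, with a median of 0.49. The share called, 83.3%, was near the 78.2% of all tested genes. The lists were chosen with results of these data known, so the split is a description. BCL2A1 (0, 1 and 62 counts), PLAU (10, 21 and 66), CSF1 (13, 41 and 89), ICAM1 and IL6 were under 1 CPM in every control library. They passed the filter through acriflavine libraries and could enter only as higher, which raises the count of higher targets and the median. Their p-values carry the same limit. Of the higher targets, IER3 (18.7 to 26.6 CPM in controls, 67.4 to 71.7 CPM at 5 µM, 1.57 ± 0.08, adjusted p = 1.62e-17), GADD45B (1.02 ± 0.06, adjusted p = 1.16e-17) and BCL2L1 (0.90 ± 0.05, adjusted p = 2.98e-17) were those with the smallest p. ICAM1, an adhesion molecule, had 7, 82 and 225 counts over the groups (4.83 ± 0.34 at 5 µM, adjusted p = 1.25e-14). SOD2, the mitochondrial superoxide dismutase, was higher by 0.48 ± 0.05 at 5 µM (adjusted p = 9.93e-10).

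Among the lower targets, BIRC3 (cIAP2), an inhibitor of apoptosis, held 695, 685, 492 and 532 CPM in controls, 517, 585, 601 and 446 CPM at 2.5 µM and 213, 205, 180 and 215 CPM at 5 µM. The 5 µM libraries lay far below both other groups, which overlapped. BIRC3 was 2.96-fold lower at 5 µM (log2 fold change -1.57 ± 0.14, adjusted p = 1.67e-06), with -0.16 at 2.5 µM (adjusted p = 0.323). XIAP (-1.44 ± 0.09, adjusted p = 4.31e-15) and TNFAIP8 (-0.97 ± 0.11, adjusted p = 6.93e-10) were lower too. BIRC2, BCL2A1 and CFLAR are other listed genes known to restrain apoptosis, named here after their values were seen, and were not called lower. They do not stand for all such listed genes, and TRAF2 (-2.15) and TNFAIP3 (-1.28) were lower. BIRC2 (cIAP1), from the list of receptors and adaptors, held 62.8 to 83.6 CPM in controls and 89.9 to 101 CPM at 5 µM (0.37 ± 0.07, adjusted p = 6.73e-05). BCL2A1 had 0, 1 and 62 counts, and CFLAR differed by -0.10 ± 0.06 (adjusted p = 0.134). CFLAR was 0.04 with scaling to library size only and passed as lower without control replicate 2 (-0.14, adjusted p = 0.0407). The chemokine CXCL2 was lower (3.4 to 4.53 CPM in controls, 1.32 to 1.51 CPM at 5 µM, -1.52 ± 0.19, adjusted p = 7.02e-09), while CXCL8 had only 37, 30 and 32 counts (-0.29 ± 0.37, adjusted p = 0.491). IL6 had 17, 55 and 43 counts and was higher (1.23 ± 0.39, adjusted p = 0.00521). In the RefSeq windows the kB consensus was found in 4 of 13 higher targets with an entry (30.8%), 5 of 8 lower ones (62.5%) and 2 of 5 that did not pass (40%), which is not tested here.

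The genes most like NFKB1 in pattern were sought by Euclidean distance over the 12 log2 CPM values centred on the control mean, among 10905 genes with a symbol and a mean log2 CPM of at least 3. TRIB3 (distance 0.347), EPRS1 (0.391) and NAPRT (0.439) were nearest, with log2 fold changes of -1.43, -1.39 and -1.26 at 2.5 µM and -2.15, -2.21 and -2.09 at 5 µM. TRIB3 is a pseudokinase, EPRS1 a tRNA synthetase and NAPRT an enzyme of NAD synthesis. For NFKBIZ the nearest were ROR1 (0.586), GOLGA2P5 (0.603) and PHLPP2 (0.637), at larger distances.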

How the data were processed

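Poly-A RNA libraries of 12 cultures were counted per gene. The deposited values are raw read counts per Ensembl gene in a single table. The submitters' processing notes name, without roles, STAR 2.4.1d, Bowtie2 2.2.4, featureCounts 1.4.6, cutadapt 1.7.1, edgeR 3.8.6 and the build GRCh37. The annotation release and whether strand was used in counting are not stated. Symbols, transcript lengths and overlaps come from GENCODE 29, on GRCh38, and 51989 genes had a symbol.

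The 12 libraries entered 1 quasi-likelihood fit in edgeR 4.0.16 (R 4.3.3; filterByExpr, TMM, robust glmQLFit, glmQLFTest), with 9 residual degrees of freedom. Benjamini-Hochberg adjustment ran over 16839 genes, with 0.05 as threshold. SE is the log2 fold change divided by the square root of F. CPM are scaled by TMM. Counting intervals cover counting error only, and the steps were tested on simulated data. No pair of libraries was identical. The labels call the 4 libraries of a group biological replicates.

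Members and lists were chosen with earlier results of these data known. The genes named beside the members were drawn from those with the smallest p in each list and direction at 5 µM, and from genes set by name. Not all genes so drawn are described. BIRC2, BCL2A1, CFLAR, CPS1, PLAU and CSF1 fall under neither rule and were added after their values were seen. BCL2A1, PLAU and CSF1 were not followed through the alternatives or the search for libraries that stood apart. Alternatives were RLE, upper-quartile and library-size scaling, other filters on low counts, DESeq2 1.42.0, limma-voom (limma 3.58.1), a replicate block, fits on the groups compared, and leaving out each library.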

Additional observations from a re-analysis of the deposited data

Results flagged for a closer look

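In 7 of the 165 sets of 4 libraries examined (1 gene in 1 group), 1 library stood apart from its group by a gap, as a share of the group's range, above Dixon's 95% critical value. Chance alone gives such a gap in about 1 set in 20, so the number found is about that of chance.

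In RELA, control replicate 4 held 65.1 CPM beside 58.1 to 58.4 CPM in the other controls (gap 0.957 of the range). In NFKBIE, replicate 1 at 2.5 µM held 13.2 CPM beside 10.6 to 11 CPM (0.846). TRAF2 was 47.4 CPM in control replicate 2 beside 49.5 to 49.9 CPM (0.84), and SKP1 was 229 CPM in the same library beside 211 to 214 CPM (0.833). IL6 was 0.586 CPM there beside 0.234 to 0.269 CPM (0.901). RBCK1 was 140 CPM in replicate 3 at 2.5 µM beside 152 to 154 CPM (0.857), and SOD2 was 188 CPM in replicate 2 at 2.5 µM beside 176 to 177 CPM (0.917).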

How the results depend on the processing

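The counts of genes and of members called stayed within 1.5 times their main value under every alternative. NFKB1, NFKB2, RELA, RELB, REL, NFKBIA and TNFAIP3 kept their direction and call at 5 µM against control in all 21. Without 1 library, 7 to 9 members were called there, 5 to 6 at 2.5 µM and 5 to 8 between doses. No pairing by replicate number was seen. With group means removed, same-numbered libraries of different groups had correlations of -0.13 to 0.0745. Of the 12 libraries, 0 correlated best with their own number in both other groups. With the replicate block 9 members were called at 5 µM and 5 members at 2.5 µM, where NFKBIA was lost (adjusted p = 0.0616). Scaling to library size alone moved the median of all genes at 5 µM from -0.01 to 0.12 on the log2 scale. The cause of the reversals below was not tested, and none of these values passed the threshold in the main analysis.

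At 2.5 µM against control, UBE2D2 changed sign from -0.01 to 0.04 with library size and 0 in the fit of 2 groups, and without 1 library ran from -0.04 to 0.03. The ranges without 1 library were -0.01 to 0.06 for NFKB2, -0.03 to 0.16 for NKIRAS1, -0.02 to 0.09 for NFKBIB, -0.01 to 0.08 for CUL1, 0 to 0.13 for CHUK and -0.02 to 0.06 for SOD2. At 5 µM against control, CFLAR was 0.04 with library size. Between doses, BIRC2 was 0.02 with RLE and DESeq2, 0.03 with upper-quartile scaling, 0.07 with library size and -0.06 to 0.02 without 1 library, BCL3 was 0.02 with library size, and CXCL8 ran from -0.02 to 0.53 without 1 library. For the step contrast, RELA was 0 with RLE, library size and DESeq2, 0.01 with upper-quartile scaling, and -0.11 to 0.01 without 1 library. REL ran from -0.02 to 0.16, XIAP from -0.20 to 0.03 and CYLD from -0.01 to 0.11. Among the members, depth limits REL and NFKBIZ most, which had the fewest counts. BCL2A1, CXCL8, IL6, IRAK3, TNFSF15, ICAM1 and IL1B had fewer still.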
